A study of Homo sapiens with 4 samples.

Results

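Mitochondrial carriers and the machinery that imports proteins into mitochondria were examined in T47D cells that carried a hairpin against FDXR. The genes were those with a symbol starting with SLC25A, TIMM or TOMM and a digit, or UCP1 to UCP3, in the annotation of the array. This rule took 30 of the 14679 genes with a named probe: 13 TIMM genes, 10 TOMM genes and 7 with an SLC25A symbol. Of these 7, only SLC25A15 and SLC25A2 encode carriers, while 4 are antisense RNAs and 1 is a pseudogene. The other 46 protein-coding SLC25A genes of RefSeq, the 3 UCP genes, TIMM23B and TIMM29, which lack a named probe, were not analysed here, so the results concern protein import far more than metabolite carriers. T47D is a human ER+ breast cancer cell line, grown in RPMI-1640 with serum. The cells were infected with virus encoding FDXR sh434, 1 hairpin against the mRNA of ferredoxin reductase, or with shControl virus. Each group had 2 arrays, titled as biological replicates, and the 4 arrays are Affymetrix arrays of total RNA. The labels say retrovirus where the study's methods say lentivirus, and the source names of 3 arrays read T48D, T49D and T50D where the growth text of all 4 names T47D.

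Nearly all mitochondrial proteins are made in the cytosol and enter through the TOM complex of the outer membrane. Proteins with a presequence then pass the TIM23 complex of the inner membrane, while metabolite carriers of the SLC25 family, which have internal signals, are bound by the receptor TOMM70, escorted by small TIM chaperones and inserted by TIM22. The carriers themselves move nucleotides, amino acids, carboxylates and cofactors across the inner membrane.

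The deposited values are log2 signals of 38598 probes, with array medians of 4.76 to 4.78. The Pearson correlation across probes, which are not independent replicates, was 0.994 between the FDXR sh434 arrays, 0.991 between the shControl arrays and 0.987 to 0.988 between conditions. No probe is named FDXR, so its depletion was not analysed here. Of the 9 luminal markers listed, 8 had a named probe, and 7 of them had mean log2 signals from 8.81 to 11.38 in both groups, with ESR1 at 7.30 in FDXR sh434 cells and 7.67 in shControl cells. Of the markers of other cells, KRT5, KRT14, CD14 and VIM had a named probe, reached a mean of at most 5.13 in either group and passed in neither fit below. With the signal-dependent spread described below PGR, the progesterone receptor, was lower in FDXR sh434 cells (10.63, against 11.38 in shControl cells, adjusted p = 8.26e-05 from limma) and KRT18 higher (11.22, against 10.95 in shControl cells, adjusted p = 0.0105). Their part in the results was not tested. The arrays are bulk samples, in which less RNA per cell and fewer cells of a kind cannot be told apart.

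None of the 30 genes passed limma's test of FDXR sh434 against shControl at an adjusted p under 0.05 over all probes (0 in each direction). In this test 0.388% of all named genes were higher and 0.395% lower. Taken without adjustment, a p under 0.05 was reached by 7 genes: 5 of the 30 were higher (12.5% of all named genes) and 2 were lower (7.51%). These were TOMM70, TIMM10, TIMM10B, TIMM22 and TOMM40L on the higher side and TOMM34 and TIMM17B on the lower side. Of named genes at or above the median probe signal, as 26 of the 30 were, 16.2% were higher and 8.05% lower at this unadjusted threshold. The log2 fold change, the mean of the FDXR sh434 arrays minus that of the shControl arrays, was positive for 24 genes and negative for 6, with a median of 0.12, beside 55.3% positive and a median of 0.03 over all named genes. Bright genes leaned further to positive values. Of the 9763 named genes at or above the median probe signal 5817 were positive, with a median of 0.05. Of the 26 genes of the 30 that bright, 22 were positive, with a median of 0.13. After quantile normalization 22 of all 30 were positive and their median was 0.06. The log2 fold changes of 26 genes lay in the middle 90% of all named genes, between -0.39 and 0.46, and those of TIMM22, TOMM40L, TIMM17B and TOMM34 lay just outside.

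Both FDXR sh434 arrays lay above both shControl arrays for 14 of the 30 genes (31.5% of all named genes) and below them for 5 (22.4%). Most of these genes are brighter than the typical probe, with 26 at or above the median probe signal of 4.76, and among all named genes that bright the shares were 38.6% and 22.9%. The spread between arrays of a condition was smaller for bright probes. Its median, as residual SD, was 0.162 for the dimmest 25% of probes and 0.0728 for the brightest 25%. A second fit estimated the prior variance of limma as a robust function of mean signal, and this is called the signal-dependent spread. In it, 4 of the 30 genes were higher (7.42% of all named genes, 10.9% of those at or above the median signal) and 1 was lower (3.88% and 5.49%). These were TOMM70, TIMM10, TIMM10B and TIMM22, and TOMM34. Without either 1 of the FDXR sh434 arrays, 0 of the 30 passed even with the signal-dependent spread, where 1.05% to 1.21% of all named genes were higher and 1.06% to 1.08% lower. Without either 1 of the shControl arrays 5 to 7 of the 30 were higher and 1 to 2 lower, beside 8.11% to 9.26% and 4.12% to 4.75% of all named genes.

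**Figure D1:**
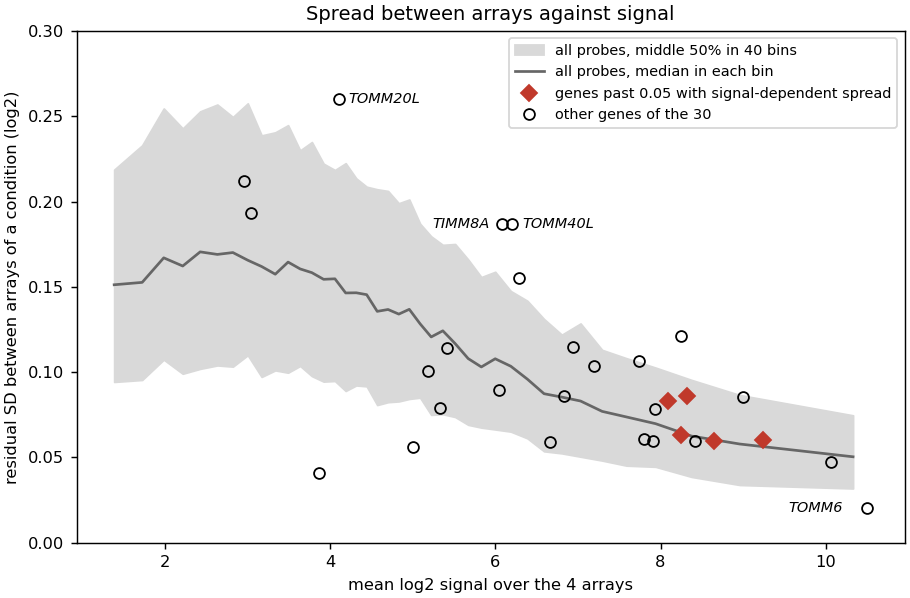
Residual SD between arrays of a condition (y axis, log2 units) against mean log2 signal over the 4 arrays (x axis). The grey band and line give all 38598 probes, diamonds the 5 genes that passed with the signal-dependent spread and circles the other genes of the 30. TOMM20L, TIMM8A and TOMM40L lie furthest above the band of all probes, and TOMM6 lies below it at a residual SD of 0.0204.

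TOMM70, TIMM10, TIMM10B and TIMM22, which passed on the higher side with the signal-dependent spread, all act in the import of carriers, a grouping made after their values were seen. TIMM9, a partner in the same chaperone complex as TIMM10, had nearly equal levels in both groups. TOMM70 encodes the outer membrane receptor that takes carrier precursors from cytosolic chaperones. Its log2 signal was 9.40 and 9.44 on the FDXR sh434 arrays and 9.12 and 9.01 on the shControl arrays. The TOMM70 level was 1.28-fold higher, a log2 difference of 0.36 ± 0.107 (standard error, SE, with adjusted p = 0.195 from limma, and 0.00884 with the signal-dependent spread). The FDXR sh434 arrays lay close together and clear of both shControl arrays.

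TIMM10 encodes a chaperone of the intermembrane space that forms a hexamer with TIMM9. TIMM10 had log2 signals of 8.31 and 8.25 on the FDXR sh434 arrays and 7.83 and 7.99 on the shControl arrays, 1.29-fold higher (log2 fold change 0.37 ± 0.112 SE, adjusted p = 0.201, and 0.0212 with the signal-dependent spread). TIMM10B, the small TIM that docks on the TIM22 complex, had 8.60 and 8.44 on the FDXR sh434 arrays and 8.09 and 8.15 on the shControl arrays, 1.32-fold higher (log2 fold change 0.41 ± 0.113 SE, adjusted p = 0.172, and 0.0118 with the signal-dependent spread). In both genes the lower FDXR sh434 array was still above the higher shControl array. TIMM9 had 7.24 and 7.17 on the FDXR sh434 arrays and 7.29 and 7.10 on the shControl arrays. Its arrays overlapped, with a TIMM9 log2 fold change of 0.01 and a 95% interval of -0.29 to 0.31, and the sign turned to -0.05 after quantile normalization. The TIMM9 gene overlaps TOMM20L and KIAA0586 on the other strand, and whether its probe reads only TIMM9 was not tested.

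TIMM22 encodes the channel of the inner membrane translocase that inserts carriers, and its gene overlaps ABR on the other strand. Its log2 signal was 8.83 and 8.94 on the FDXR sh434 arrays and 8.40 and 8.44 on the shControl arrays. The 2 groups stood further apart than the arrays within either group, 1.38-fold higher in FDXR sh434 cells (TIMM22 log2 fold change 0.46 ± 0.107 SE, adjusted p = 0.125 from limma). With the signal-dependent spread the adjusted p of TIMM22 was 0.00335, the lowest of the 30 genes in that fit. Over all alternatives the TIMM22 log2 fold change ranged from 0.41 to 0.52 and its adjusted p from 0.00116 to 0.472. The range of the adjusted p was 0.002 to 0.545 for TOMM70, 0.00475 to 0.587 for TIMM10 and 0.00657 to 0.576 for TIMM10B, and all 3 kept a positive log2 fold change throughout. Of the other proteins of the TIM22 complex, TIMM29 was not analysed here, and AGK, the acylglycerol kinase that is also a TIM22 subunit, had 7.31 and 7.17 on the FDXR sh434 arrays and 7.12 and 6.89 on the shControl arrays (log2 fold change 0.24, standard error 0.128, adjusted p = 0.41).

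**Figure D2:**
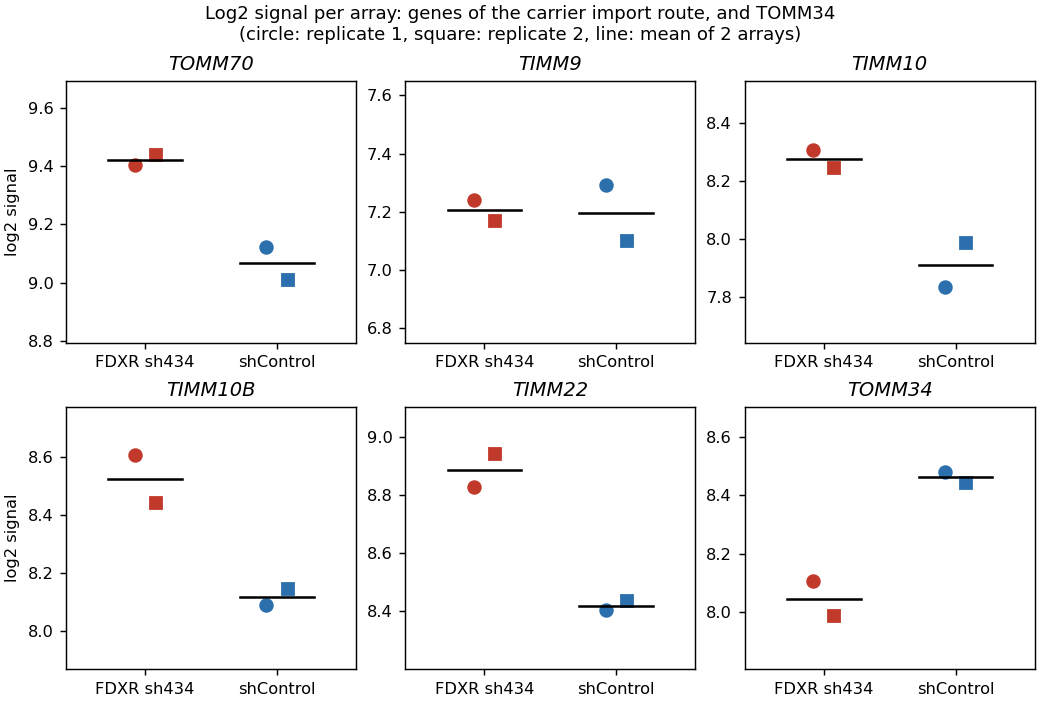
Log2 signal (y axis) of 5 genes of the carrier import route and of TOMM34 on each array, FDXR sh434 left of shControl. Points are single arrays, lines the mean of 2 arrays, and every panel spans the same range of log2 units. TOMM70, TIMM10, TIMM10B and TIMM22 are higher on both FDXR sh434 arrays, TOMM34 is lower on both, and TIMM9 overlaps.

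TOMM34 was the 1 gene that passed on the lower side. It encodes a mostly cytosolic cochaperone that binds HSP70 and HSP90 and is not part of the TOM pore. Its log2 signal was 8.11 and 7.98 on the FDXR sh434 arrays and 8.48 and 8.44 on the shControl arrays. Both FDXR sh434 arrays lay below both shControl arrays, 1.33-fold lower (TOMM34 log2 fold change -0.42 ± 0.107 SE, adjusted p = 0.151 from limma, and 0.00798 with the signal-dependent spread). Over all alternatives the TOMM34 log2 fold change ranged from -0.48 to -0.36 and its adjusted p from 0.00363 to 0.51.

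The promoter windows of these 5 genes are printed because they are the ones that passed with the signal-dependent spread and because the study describes FDXR as a target of a complex that holds NRF1, a factor for nuclear genes of mitochondrial proteins. They run from 250 bases before to 50 bases after the RefSeq start in GRCh38.p14. Capitals mark matches, on either strand, to the NRF1 motif, GCGCAN followed by GCGC, or to CCGGAA, called an ETS core here. ETS factors are the family of GABP, which also regulates nuclear genes of mitochondrial proteins. Shorter or other forms of the ETS core were not searched, so the ETS counts below hold for CCGGAA alone.
TOMM70, chr3:100401040-100401339, minus strand: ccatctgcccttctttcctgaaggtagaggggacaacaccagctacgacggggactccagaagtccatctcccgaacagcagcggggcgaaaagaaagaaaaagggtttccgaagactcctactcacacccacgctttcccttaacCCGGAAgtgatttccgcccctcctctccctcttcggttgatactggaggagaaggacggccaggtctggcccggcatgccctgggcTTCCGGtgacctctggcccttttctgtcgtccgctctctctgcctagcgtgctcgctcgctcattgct
TIMM10, chr11:57530705-57531004, minus strand: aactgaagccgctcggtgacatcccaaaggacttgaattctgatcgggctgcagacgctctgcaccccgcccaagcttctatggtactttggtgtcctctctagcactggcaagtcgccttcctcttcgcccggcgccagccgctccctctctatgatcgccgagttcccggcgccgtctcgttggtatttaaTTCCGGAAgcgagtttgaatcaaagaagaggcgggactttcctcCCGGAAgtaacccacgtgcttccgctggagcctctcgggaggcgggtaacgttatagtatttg
TIMM10B, chr11:6481251-6481550, plus strand: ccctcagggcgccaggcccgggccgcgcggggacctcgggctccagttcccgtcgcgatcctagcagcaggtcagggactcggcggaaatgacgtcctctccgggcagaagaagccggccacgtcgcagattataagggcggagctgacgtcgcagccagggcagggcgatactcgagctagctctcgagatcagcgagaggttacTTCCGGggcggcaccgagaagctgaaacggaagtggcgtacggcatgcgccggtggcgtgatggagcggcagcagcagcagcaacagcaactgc
TIMM22, chr17:996879-997178, plus strand: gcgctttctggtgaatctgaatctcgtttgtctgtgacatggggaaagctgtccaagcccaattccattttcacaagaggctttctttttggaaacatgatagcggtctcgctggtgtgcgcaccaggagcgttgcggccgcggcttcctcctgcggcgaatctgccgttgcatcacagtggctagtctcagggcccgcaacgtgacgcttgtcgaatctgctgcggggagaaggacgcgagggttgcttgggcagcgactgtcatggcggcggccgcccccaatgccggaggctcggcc
TOMM34, chr20:44960348-44960647, minus strand: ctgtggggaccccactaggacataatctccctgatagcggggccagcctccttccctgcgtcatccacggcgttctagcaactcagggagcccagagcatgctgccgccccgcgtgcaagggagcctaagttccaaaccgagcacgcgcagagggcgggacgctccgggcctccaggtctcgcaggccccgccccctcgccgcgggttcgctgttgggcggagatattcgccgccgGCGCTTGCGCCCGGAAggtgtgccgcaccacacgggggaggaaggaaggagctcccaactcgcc
The TOMM70, TIMM10 and TIMM10B windows hold 2, 3 and 1 ETS cores, with 2 of the TIMM10 cores sharing letters. The TOMM34 window has 1 NRF1 match starting 14 bases before the gene's start, followed directly by 1 ETS core. The TIMM22 window holds neither. Of the 30 genes, 26 have a window in RefSeq, and 11 of these (42.3%) hold an ETS core, beside 17.6% of 27305 promoters and 23.7% of the 10600 promoters of genes named on the array. The NRF1 motif is in 4 of the 26 (15.4%), beside 6.28% and 8.76%: TOMM34, TOMM20, TOMM40 and TOMM7. The windows of these genes have a median GC content of 65.2%, against 58.3% in all promoters and 63.3% in those of named genes. TIMM23, whose window holds 3 ETS cores, had equal mean levels in both groups. A match is a description of the letters and no shown site.

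Of the TOM proteins other than TOMM70 and TOMM34, 0 passed in limma in either fit. TOMM40, the pore, has 2 named probes. The brighter TOMM40 probe had log2 signals of 8.44 and 8.52 on the FDXR sh434 arrays and 8.40 and 8.32 on the shControl arrays (log2 fold change 0.12, adjusted p = 0.619 from limma). The dimmer TOMM40 probe, at 5.86 and 6.02 on the FDXR sh434 arrays and 5.99 and 6.01 on the shControl arrays, had a log2 fold change of -0.06, so the probes differ in sign, and neither passed. TOMM22, the central receptor, had 7.94 and 8.04 on the FDXR sh434 arrays and 7.87 and 7.80 on the shControl arrays (TOMM22 log2 fold change 0.15). TOMM20, the receptor for presequences, had 7.76 and 7.56 on the FDXR sh434 arrays and 7.78 and 7.83 on the shControl arrays (TOMM20 log2 fold change -0.15, adjusted p = 0.584). The groups did not overlap for either receptor, and for TOMM20 the upper FDXR sh434 array was nearly level with the lower shControl array.

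The small TOM subunits that stabilise the pore had log2 fold changes of 0.17 for TOMM6, 0.11 for TOMM5 and 0.10 for TOMM7. TOMM6 had the smallest residual SD of the 30 genes, with 10.60 and 10.57 on the FDXR sh434 arrays and 10.42 and 10.40 on the shControl arrays. It did not pass (adjusted p = 0.449 from limma, and 0.063 with the signal-dependent spread, with a range of 0.0269 to 0.786 over all alternatives). TOMM7 had 6.77 and 6.65 on the FDXR sh434 arrays and 6.62 and 6.59 on the shControl arrays, without overlap. TOMM5 overlapped, with 8.28 and 8.34 on the FDXR sh434 arrays and 8.08 and 8.31 on the shControl arrays. Without the shControl array of replicate 1 the TOMM5 log2 fold change was -0.00735.

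Both paralogs of pore and receptor subunits were uneven between shControl arrays. TOMM40L, a paralog of TOMM40, had the highest log2 fold change of the 30 genes, 0.48 ± 0.151 (SE, adjusted p = 0.211 from limma, and 0.0645 with the signal-dependent spread, with a range of 0.00804 to 0.547 over all alternatives). Its log2 signal was 6.41 and 6.48 on the FDXR sh434 arrays and 6.15 and 5.78 on the shControl arrays. The value was 0.66 without the shControl array of replicate 1 and 0.29 without that of replicate 2. The TOMM40L gene overlaps NR1I3 on the other strand. TOMM20L, a paralog of TOMM20, was dim, with 4.36 and 4.18 on the FDXR sh434 arrays and 3.69 and 4.18 on the shControl arrays, which overlapped (TOMM20L log2 fold change 0.33, adjusted p = 0.432).

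In the TIM23 route for presequence proteins, 0 of 6 measured genes passed in limma, with or without the signal-dependent spread, and their median log2 fold change was 0.10. TIMM23, the channel, had 10.07 and 10.06 on the FDXR sh434 arrays and 10.11 and 10.01 on the shControl arrays. The TIMM23 log2 fold change was 0.00, with a 95% interval of -0.26 to 0.26, and -0.12 to 0.12 with the signal-dependent spread. Its near-identical copy TIMM23B was not analysed here, and the TIMM23 probe may read both. TIMM50, the receptor that hands presequences to the channel, overlapped, with 8.02 and 7.94 on the FDXR sh434 arrays and 7.81 and 7.95 on the shControl arrays.

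TIMM17A and TIMM17B encode alternative channel subunits, and their log2 fold changes had opposite signs. TIMM17B had 6.07 and 6.08 on the FDXR sh434 arrays and 6.33 and 6.64 on the shControl arrays. Both FDXR sh434 arrays were below both shControl arrays, with a TIMM17B log2 fold change of -0.41 ± 0.138 (SE, adjusted p = 0.224 from limma, and 0.0792 with the signal-dependent spread, with a range of 0.0138 to 0.575 over all alternatives). The TIMM17B value was -0.57 without the shControl array of replicate 1 and -0.26 without that of replicate 2. TIMM17A had 6.17 and 6.01 on the FDXR sh434 arrays and 6.04 and 5.95 on the shControl arrays, which overlapped (TIMM17A log2 fold change 0.10, adjusted p = 0.708). The difference between the paralogs was not tested. TIMM17B overlaps PQBP1 on the other strand, and the part of that gene in the signal was not tested.

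TIMM21, which links TIM23 to newly assembled respiratory chain subunits, had 7.13 and 7.05 on the FDXR sh434 arrays and 6.91 and 6.69 on the shControl arrays. TIMM44, which tethers the HSP70 import motor to the channel, had 6.89 and 6.95 on the FDXR sh434 arrays and 6.82 and 6.65 on the shControl arrays. Neither gene overlapped between groups and neither passed, with log2 fold changes of 0.29 for TIMM21 (adjusted p = 0.313) and 0.18 for TIMM44 (adjusted p = 0.472).

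All 6 small TIM chaperones were measured, and all 6 log2 fold changes were positive, with a median of 0.16, though after quantile normalization 5 of 6 were. Besides TIMM9, TIMM10 and TIMM10B, TIMM8A and TIMM8B pair with TIMM13 and escort the TIM23 channel protein and other substrates. TIMM8A, the gene of Mohr-Tranebjaerg deafness-dystonia syndrome, had 6.12 and 6.24 on the FDXR sh434 arrays and 5.81 and 6.17 on the shControl arrays. The shControl arrays of TIMM8A differed by more than the groups did, and its log2 fold change of 0.19 became 0.0115 without the shControl array of replicate 1. TIMM8B had 7.83 and 7.90 on the FDXR sh434 arrays and 7.78 and 7.68 on the shControl arrays, without overlap (TIMM8B log2 fold change 0.14, adjusted p = 0.575). TIMM13 had 8.94 and 9.10 on the FDXR sh434 arrays and 8.93 and 8.997 on the shControl arrays, which overlapped (TIMM13 log2 fold change 0.06, adjusted p = 0.84). TIMM13 overlaps TMPRSS9 and TIMM8B overlaps NKAPD1, and which gene each probe reads was not tested.

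**Figure D3:**
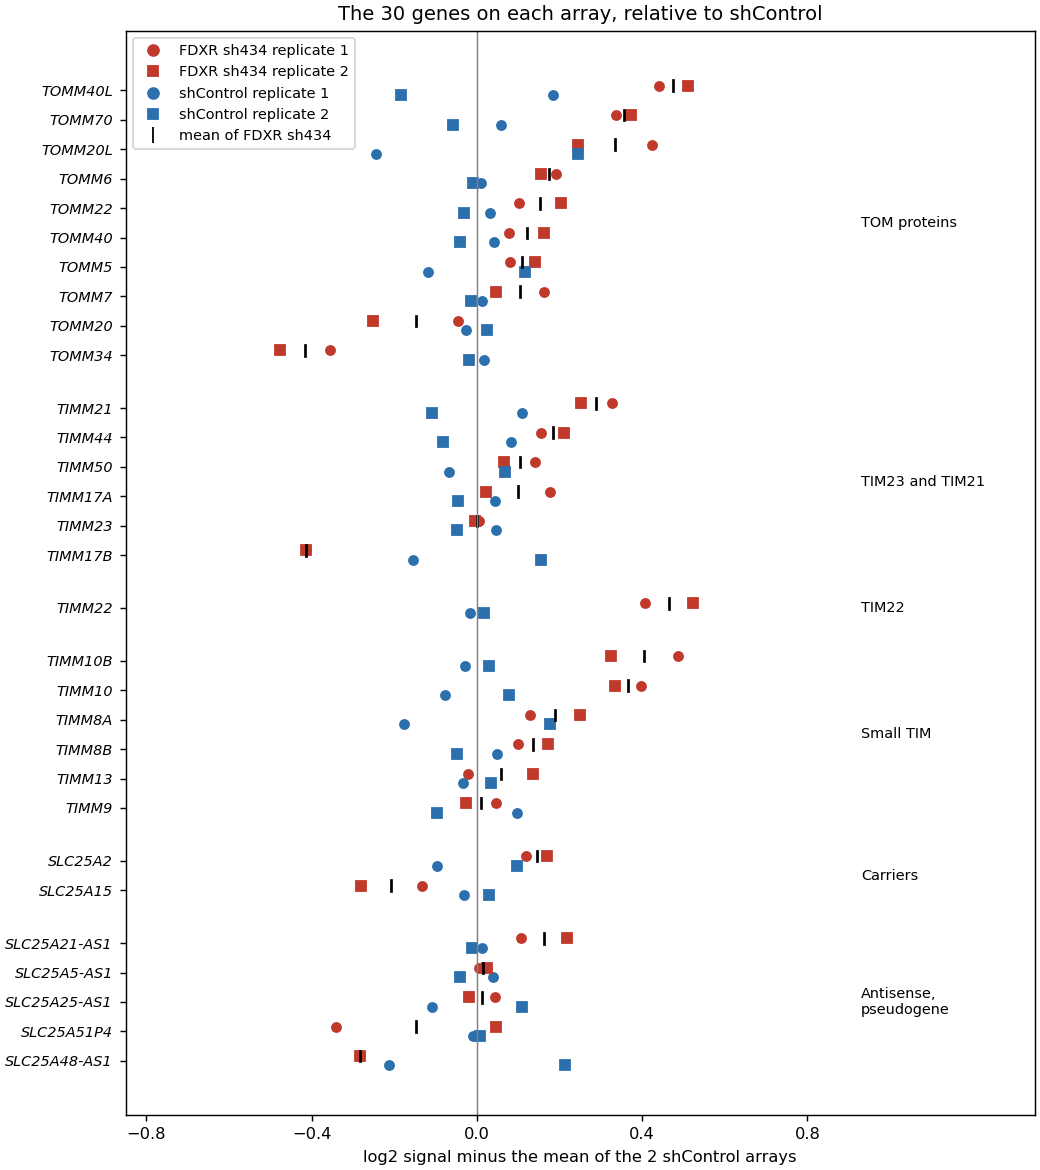
Log2 signal of each of the 30 genes on each array minus the mean of the 2 shControl arrays (x axis, log2 units), by role and by log2 fold change within a role. Within each gene the FDXR sh434 arrays are drawn above the shControl arrays, with circles for replicate 1, squares for replicate 2 and a tick for the FDXR sh434 mean. TOMM40L, TIMM22, TIMM10B, TIMM10 and TOMM70 lie to the right on both FDXR sh434 arrays, and TOMM34 and TIMM17B to the left. TOMM20L, SLC25A48-AS1, TOMM40L and TIMM8A have widely spaced shControl arrays.

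The 2 carriers measured are ornithine carriers, and neither passed. SLC25A15, the carrier that exchanges ornithine and citrulline for the urea cycle, had 5.31 and 5.16 on the FDXR sh434 arrays and 5.41 and 5.47 on the shControl arrays (SLC25A15 log2 fold change -0.21, adjusted p = 0.414 from limma). SLC25A2, a second ornithine carrier, had 5.23 and 5.29 on the FDXR sh434 arrays and 5.02 and 5.21 on the shControl arrays (SLC25A2 log2 fold change 0.14, adjusted p = 0.587). Neither overlapped between groups, and the signs were opposite.

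The antisense RNAs and the pseudogene showed no calls either, with log2 fold changes from -0.28 to 0.16. SLC25A21-AS1, antisense to the oxodicarboxylate carrier gene, had 5.03 and 5.14 on the FDXR sh434 arrays and 4.93 and 4.91 on the shControl arrays, without overlap (SLC25A21-AS1 log2 fold change 0.16, adjusted p = 0.496). SLC25A48-AS1 had 2.81 on both FDXR sh434 arrays and 2.88 and 3.31 on the shControl arrays (SLC25A48-AS1 log2 fold change -0.28, adjusted p = 0.444). SLC25A25-AS1, SLC25A5-AS1 and the pseudogene SLC25A51P4 overlapped between groups, with log2 fold changes of 0.01, 0.01 and -0.15, and each changed sign without 1 of the arrays. The differences of these 3 lie within the spread between their arrays.

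Partners of the import machinery and other mitochondrial membrane proteins were set beside these genes. Of 75 listed genes 47 had a named probe, 0 passed in limma at an adjusted p under 0.05, and at an unadjusted p under 0.05 there were 10 higher and 5 lower (12.5% and 7.51% of all named genes). With the signal-dependent spread 6 were higher and 3 lower (7.42% and 3.88%). Of the 47, 46 were at or above the median signal, and among all named genes that bright the shares were 16.2% and 8.05% without adjustment and 10.9% and 5.49% with the signal-dependent spread. They are PMPCA, PITRM1, SAMM50, SMDT1, PHB2 and TRAP1 on the higher side and VDAC1, ROMO1 and SFXN2 on the lower side, and all but TRAP1 and SFXN2 were named after their values were seen. The median log2 fold change of the 47 was 0.06, beside 0.14 for the 23 TIMM and TOMM genes and 0.03 for all named genes. After quantile normalization these medians were 0.03, 0.08 and 0.02. Without it, the 9763 named genes at or above the median signal had a median of 0.05, near that of the 47.

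Of 11 measured genes of the import motor, processing and sorting, 8 had a positive log2 fold change and 3 a negative one. The values ran from -0.49 to 0.44, with a median of 0.22. Of all named genes 55.3% were positive, as were 5817 of the 9763 at or above the median signal. PMPCA, the alpha subunit of the peptidase that removes presequences in the matrix, had 8.96 and 9.04 on the FDXR sh434 arrays and 8.52 and 8.60 on the shControl arrays, 1.36-fold higher (PMPCA log2 fold change 0.44, adjusted p = 0.135, and 0.00373 with the signal-dependent spread). PMPCB, its beta subunit, had a log2 fold change of 0.04 (adjusted p = 0.876). PITRM1, the protease that degrades cleaved presequences, had 8.60 and 8.64 on the FDXR sh434 arrays and 8.22 and 8.34 on the shControl arrays (PITRM1 log2 fold change 0.34, and 0.0188 as the adjusted p with the signal-dependent spread). The FDXR sh434 arrays of all 3 genes, PMPCB included, lay above their shControl arrays, and only PMPCA and PITRM1 passed, with the signal-dependent spread alone.

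HSPA9, the HSP70 of the import motor, did not pass, with 11.32 and 11.27 on the FDXR sh434 arrays and 11.27 and 11.19 on the shControl arrays. OXA1L, which inserts proteins from the matrix side, had 8.98 and 8.95 on the FDXR sh434 arrays and 8.75 and 8.74 on the shControl arrays (OXA1L log2 fold change 0.22, adjusted p = 0.347). ROMO1, a small inner membrane protein, had 6.60 and 6.65 on the FDXR sh434 arrays and 7.03 and 7.20 on the shControl arrays, 1.41-fold lower (ROMO1 log2 fold change -0.49, adjusted p = 0.128, and 0.0137 with the signal-dependent spread). ROMO1 was thus opposite in sign to most of its list.

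In the outer membrane, SAMM50, which assembles beta-barrel proteins such as TOMM40 and VDAC1, had 8.76 on both FDXR sh434 arrays and 8.50 and 8.29 on the shControl arrays (SAMM50 log2 fold change 0.37, adjusted p = 0.214, and 0.0219 with the signal-dependent spread). VDAC1, the channel for metabolites, had 8.02 and 7.93 on the FDXR sh434 arrays and 8.57 and 8.64 on the shControl arrays. This is 1.55-fold lower, with a VDAC1 log2 fold change of -0.63 ± 0.106 (SE, adjusted p = 0.0756 from limma, and 0.000838 with the signal-dependent spread). With limma both fitted and adjusted over named probes only, the adjusted p of VDAC1 was 0.0323. VDAC1 was the gene furthest from 0 among these 47 and the 30 genes above, and with the signal-dependent spread it passed without any 1 of the 4 arrays. The 2 brightest genes of the list, MTCH2 and VDAC3, had log2 fold changes of 0.02 and -0.10 and did not pass.

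Among other inner membrane transporters, SMDT1, the regulatory subunit of the calcium uniporter, had 8.29 and 8.23 on the FDXR sh434 arrays and 7.80 and 7.98 on the shControl arrays (SMDT1 log2 fold change 0.37, adjusted p = 0.204, and 0.0227 with the signal-dependent spread). SFXN2, a sideroflexin, had 8.59 and 8.71 on the FDXR sh434 arrays and 8.91 and 9.003 on the shControl arrays (SFXN2 log2 fold change -0.31, adjusted p = 0.25, and 0.0275 with the signal-dependent spread). Both groups of arrays were separate for each, in opposite directions. MPC2, of the pyruvate carrier, had a log2 fold change of 0.00 (adjusted p = 0.99), and -0.03 after quantile normalization.

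Of 10 measured quality control genes, 7 had a positive log2 fold change and 3 a negative one, with a median of 0.03. Positive values were found for 55.3% of all named genes, and for 5817 of the 9763 at or above the median signal. PHB2, a prohibitin of the inner membrane, had a log2 fold change of 0.37 (adjusted p = 0.173, and 0.0156 with the signal-dependent spread). TRAP1, the HSP90 of the matrix, had one of 0.28 (adjusted p = 0.291, and 0.0466 with the signal-dependent spread). PHB1, the other prohibitin listed, had one of 0.07 (adjusted p = 0.798). CLPX had the lowest of the list, -0.23, with no overlap between groups (adjusted p = 0.348). Neither PHB1 nor CLPX passed in either fit, and both were named after their values were seen. YME1L1, an inner membrane protease, had a log2 fold change of 0.03. Of the regulators listed, 3 had a named probe, and NRF1 and YY1, the 2 brightest, had log2 fold changes of 0.11 (adjusted p = 0.693) and 0.02 (adjusted p = 0.933), the value of YY1 turning to -0.05 after quantile normalization. The third, ESRRA, an orphan nuclear receptor that activates genes of mitochondrial metabolism, had 5.82 and 6.05 on the FDXR sh434 arrays and 6.22 and 6.66 on the shControl arrays. The groups did not overlap, and ESRRA, named after its value was seen, did not pass (log2 fold change -0.50 ± 0.181 SE, adjusted p = 0.254 from limma, and 0.09 with the signal-dependent spread).

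**Figure D4:**
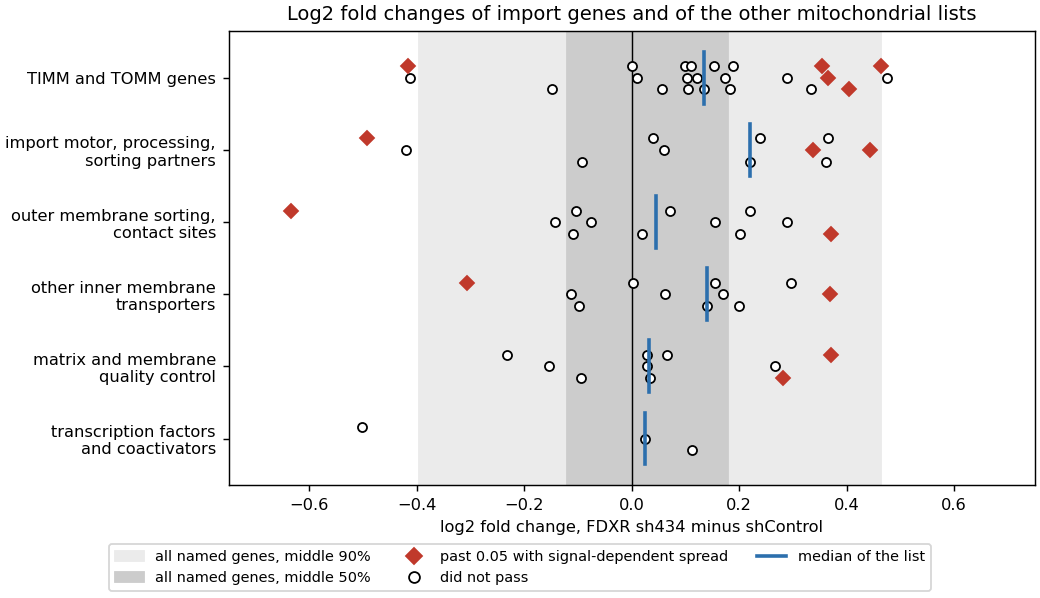
Log2 fold change, FDXR sh434 minus shControl (x axis), of the 23 TIMM and TOMM genes and of 5 lists of other mitochondrial genes (rows). Points are genes, diamonds those past 0.05 with the signal-dependent spread, blue lines list medians and grey bands all named genes. The median is 0.14 for the TIMM and TOMM genes (0.08 after quantile normalization) and 0.22 for the import motor list, and VDAC1 at -0.63 lies furthest left.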

How the data were processed

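The authors deposited log2 signals of 4 arrays, already on 1 scale. Background correction, summarisation and build were not given in the sources used here. Per the submitters' processing notes limma 3.50.3 was used. Signal over background is unknown, and precision is limited by having 4 arrays.

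Gene names came from the array's annotation (15715 of 38598 probes, 1 symbol each), and the brightest probe of each gene was used. FDXR sh434 was compared with shControl, as titled, by lmFit and eBayes of limma 3.58.1 (R 4.3.3), with condition as the only term and Benjamini-Hochberg adjustment over 38598 probes at 0.05. The fit had 2 residual and 3.45 prior degrees of freedom. P-values are two-sided and measure only the spread between these samples. An exact permutation test of 2 against 2 arrays cannot go below 0.333 and was not run. The fits were tested on simulated data.

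Alternatives were the signal-dependent spread (intensity trend with robust estimation), the replicate number as a block, both together, quantile normalization, median centring, probes at or above the median signal, named probes only, array weights, every named probe of a gene and each array left out. The trend without robust estimation was added after seeing the data.

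Members and lists were chosen with earlier results of these data known. The naming rule took genes that passed in either fit, the brightest and up to 3 of the largest changes in each group of roles, and in each other list those that passed in limma without the trend and the 2 brightest. Other genes of the 30, AGK, PMPCB, PHB1, CLPX, ESRRA and list genes called only with the signal-dependent spread were named after their values were seen. Promoters are from RefSeq. Figures were drawn with matplotlib 3.10.9.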

Additional observations from a re-analysis of the deposited data

How the results depend on the processing

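With limma, 0 of the 30 genes passed in either direction with quantile normalization, named probes only, median centring, array weights or every named probe, where 46 to 62 of 14679 named genes were higher and 54 to 63 lower, and 375 and 262 with named probes only. Without any 1 array 0 of the 30 passed, as did 0 of all named genes. With the signal-dependent spread 4 were higher and 1 lower, likewise with the trend without robust estimation, which was added after seeing the data. Leaving out probes under the median signal gave 2 higher (TIMM22 and TIMM10B) and 1 lower (TOMM34), beside 8.94% and 4.64% of the named genes left. With the signal-dependent spread and 1 array left out the counts ran from 0 to 7 higher and from 0 to 2 lower, with 0 in both directions without either FDXR sh434 array, 7 and 2 without shControl replicate 1 and 5 and 1 without shControl replicate 2. Among the partner genes the counts were 6 higher and 3 lower with the signal-dependent spread or with the trend alone, 3 higher and 2 lower above the median signal, and 0 higher and 1 lower (VDAC1) over named probes only. With 1 array left out, the counts of partner genes depended on the array left out and on the fit. A comparison with 1 array in a group assumes that this array varies as the other group does.

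No pairing by replicate number was seen over all probes, where the deviations of same-numbered arrays from their group means correlated at 0.00196. Pairing among bright probes alone was not tested. With the replicate block alone 0 of all named genes passed, so 0 of the 30 and 0 partner genes there say nothing of these genes. With the block and the signal-dependent spread 6 of the 30 were higher and 1 lower, TOMM40L and TOMM6 being added (8.38% and 4.43% of all named genes), and 6 partner genes were higher and 4 lower.

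The log2 fold change of the brightest probe kept its sign in all alternatives for 23 of the 30 genes, TOMM40 among them, whose second probe had -0.06, and for 7 genes it turned at least once. Under quantile normalization it was -0.000429 for TIMM23, -0.0481 for TIMM9, -0.0307 for MPC2 and -0.0465 for YY1. With 1 array left out it ranged from -0.0978 to 0.121 for SLC25A25-AS1, from -0.025 to 0.0546 for SLC25A5-AS1, from -0.341 to 0.0452 for SLC25A51P4, from -0.0211 to 0.136 for TIMM13, from -0.0473 to 0.0473 for TIMM23, from -0.0872 to 0.107 for TIMM9 and from -0.00735 to 0.228 for TOMM5. Of the partner genes it ranged from -0.01004 to 0.0172 for MPC2, from -0.0588 to 0.0981 for MTCH2, from -0.0552 to 0.113 for YME1L1 and from -0.00524 to 0.0535 for YY1. Within these ranges, the negative values without 1 FDXR sh434 array were -0.0198 for SLC25A25-AS1, -0.00496 for TIMM23, -0.0271 for TIMM9, -0.00169 for MPC2 and -0.0108 for MTCH2. The cause of these turns was not tested. With 2 arrays per group the standard errors of the 30 log2 fold changes were 0.10 to 0.19, which limits what could pass.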
